A study of Mus musculus with 4 samples.

Results

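CC chemokines are small secreted proteins, named for a pair of adjacent cysteines, that draw leukocytes out of the blood by activating seven-transmembrane receptors on them. The members described here are the ligands Ccl2, Ccl7, Ccl8, Ccl11, Ccl12, Ccl6 and Ccl9, which attract monocytes, macrophages or eosinophils, and the receptors Ccr2, carried by inflammatory monocytes, and Ccr3, carried by eosinophils. In the mouse mammary gland, eosinophils drawn by Ccl11 and macrophages are known to gather around the growing ends of the ducts. All probe sets that the platform annotation assigns to exactly 1 gene among these were taken, which gave 14 probe sets for all 9 genes, out of 45101 probe sets and 18193 annotated genes.

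RNA was measured on 4 Affymetrix arrays. The SPI group was 2 arrays of mammary basal cells from mice on a soy protein isolate diet, and the CAS group was 2 arrays of the same cells from mice on a control casein diet. All mice carried the MMTV-Wnt1 transgene (Wnt1-Tg) on the mixed strain background B66SJL/HEV/J. This transgene expresses the Wnt1 ligand from the promoter of a mouse mammary tumour virus, which is active in mammary epithelium, so neither diet has a group without it. The cells were sorted fresh as a population enriched in mammary stem cells (MaSC), which per the labels also holds myoepithelial cells and their progenitors. The labels give no ages, and nothing in them ties the arrays to separate animals. The p-values therefore reflect the spread between these 4 samples alone, and that spread may be technical. The comparison asks, as the series title states, whether cytokine and chemokine transcripts of these cells were lower on the protective diet.

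Values are log2 expression relative to the median of the 4 arrays for that probe set, because the deposited table is centred in this way. They show differences between arrays and no level of a gene. Differences are SPI minus CAS on the log2 scale, with 95% intervals from limma, and a probe set is said to have risen or fallen where its Benjamini-Hochberg adjusted p over all 45037 non-control probe sets was under 0.05. Over all of them 564 fell and 112 rose, and the median difference was 0.02. With arrays centred on the bacterial and phage controls added at hybridization, which were lower in SPI and moved that median to 0.18, 704 fell and 1557 rose. In bulk RNA, fewer cells of a type and less RNA per cell cannot be told apart.

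Ccl11 and Ccl8 fell on the SPI diet, and the other 7 genes had no probe set that passed the test. Of the 14 probe sets 2 fell and 0 rose, beside 1.25% of all probe sets that fell, 0.249% that rose and 1.50% that did either. At an unadjusted p under 0.05 there were 4 among the 14, beside 17.8% of all probe sets. With arrays centred on the hybridization controls 2 of the 14 likewise fell and 0 rose. The median difference of the 14 was 0.00, beside 0.02 over all probe sets. The 7 ligands had a median of -0.03 over their 9 probe sets and the receptors one of 0.09 over 5.

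Ccl11, or eotaxin, attracts eosinophils through Ccr3. Its probe set 1417789_at read -0.71 and -0.65 on the SPI arrays, against 0.92 and 0.65 on the CAS arrays. Both SPI arrays lay far below both CAS arrays, and the gap between the diets was several times the gap within either. The means were -0.68 ± 0.04 in SPI and 0.79 ± 0.19 in CAS (SD, n = 2 each). The difference of -1.47 (95% interval -1.76 to -1.18, limma adjusted p = 0.0131) is 2.77-fold lower in SPI. By p it was the 139th of the 45037 probe sets, and by size the 109th largest fall.

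Ccl8, called monocyte chemoattractant protein 2 and known in the mouse as a ligand of Ccr8, had 1 probe set, 1419684_at. It read -0.49 and -0.71 on the SPI arrays, against 0.49 and 0.73 on the CAS arrays. The diets did not overlap, and replicate 2 was the more extreme array in each. The means were -0.60 ± 0.16 in SPI and 0.61 ± 0.17 in CAS (SD, n = 2 each). The difference was -1.22 (-1.54 to -0.90, limma adjusted p = 0.0251), which is 2.33-fold lower in SPI (1.86 to 2.90).

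With any single array left out (SPI replicate 1, SPI replicate 2, CAS replicate 1 or CAS replicate 2) the Ccl11 difference lay between -1.61 and -1.33 and that of Ccl8 between -1.34 and -1.10, with limma adjusted p of 0.17 to 0.215 and 0.17 to 0.278, but no probe set of the whole table passed in any of these fits (4882 to 6513 had an unadjusted p under 0.05). They leave 1 array for a diet, assumed to vary like the pair of the other, so the lost calls say nothing particular about Ccl11 or Ccl8. Neither gene passed with an ordinary t statistic of the same model (Benjamini-Hochberg adjusted p = 0.269 and 0.3). Only 1 of all 45037 probe sets passed that way, so this too says nothing particular about Ccl11 or Ccl8.

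Ccl7, or monocyte chemoattractant protein 3, is a ligand of Ccr2. Its values were -0.13 and -0.18 on the SPI arrays, against 0.13 and 0.28 on the CAS arrays, so the diets did not overlap. The difference of -0.36 (-0.58 to -0.13) did not pass over all probe sets (limma adjusted p = 0.146), and was -0.20 with arrays centred on the hybridization controls. Groups that do not overlap were common in the table: both SPI arrays lay below both CAS arrays in 20.5% of all probe sets and above them in 27.9%, or on one side in 48.4%, against 3 and 3 of the 14 here.

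Ccl2, or monocyte chemoattractant protein 1, is the principal ligand of Ccr2 and the chief signal that draws monocytes into inflamed tissue. It read 0.03 and -0.03 on the SPI arrays, against -0.14 and 0.06 on the CAS arrays. The SPI arrays lay between the CAS arrays. The difference was 0.04 (-0.21 to 0.28, limma adjusted p = 0.892).

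Ccl12, a further ligand of Ccr2 found in the mouse, read -0.07 and 0.07 on the SPI arrays, against -0.28 and 0.14 on the CAS arrays. As with Ccl2, both extremes were CAS arrays, with CAS replicate 1 the lowest of the 4 and CAS replicate 2 the highest. The difference was 0.07 (-0.32 to 0.47, limma adjusted p = 0.859), and the 0.42 between the CAS arrays was the largest gap between arrays of one diet among the 14 probe sets. The last digits of the deposited values keep a rounding step that, read as that of the values before centring, bounds the level of the lowest array. For Ccl12 that array lay under 4 on the log2 scale.

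**Figure D1:**
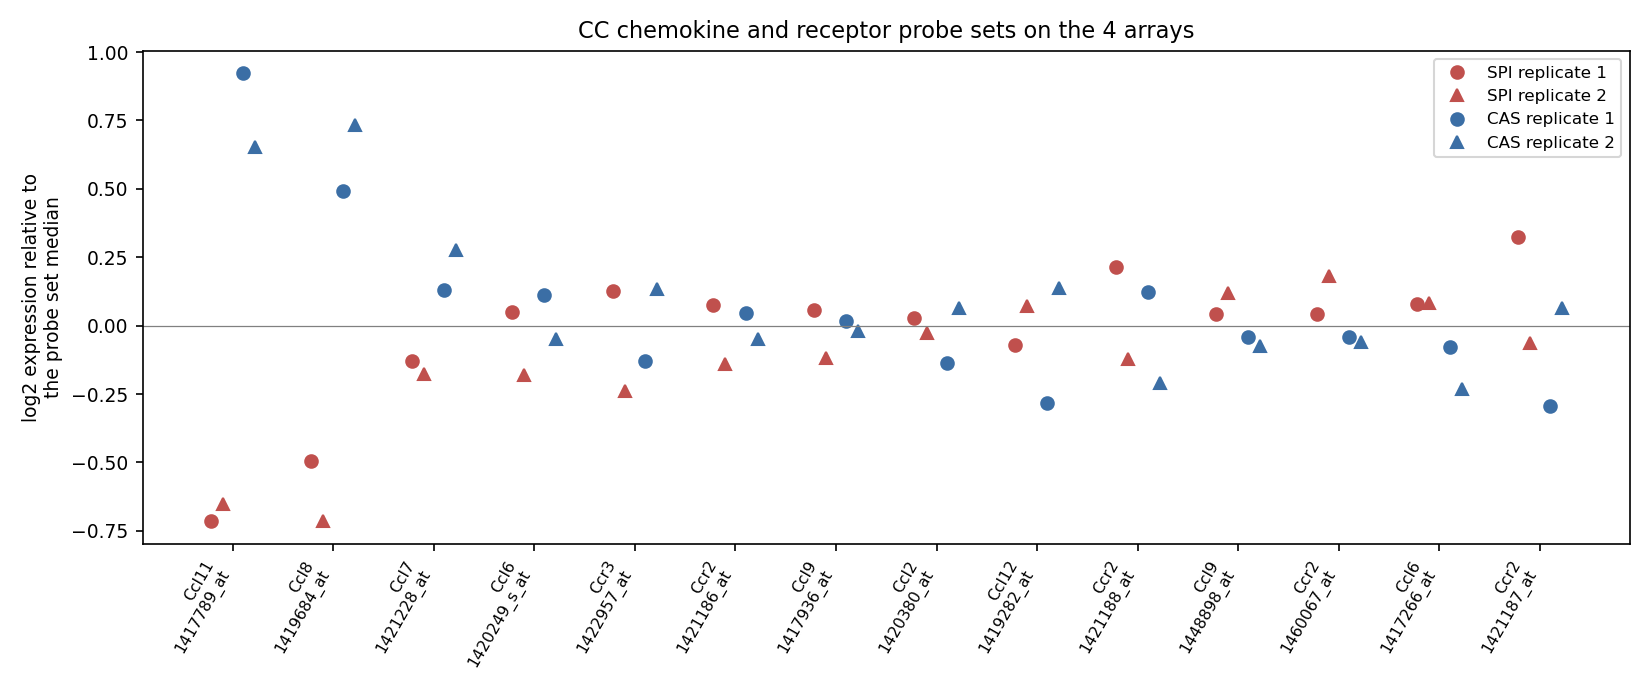
Log2 expression relative to the median of each probe set (vertical axis) on each of the 4 arrays, for the 14 probe sets of the 9 genes, ordered by their difference. Red marks are SPI arrays and blue marks CAS arrays, with circles for replicate 1 and triangles for replicate 2. Ccl11 and Ccl8 show the widest separation, and in 8 of the 14 the diets overlap, beside 23261 of all 45037 probe sets.

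Ccl6 and Ccl9 are ligands of Ccr1 known from rodents and made mainly by myeloid cells. For Ccl6, probe set 1417266_at read 0.08 and 0.08 on the SPI arrays, against -0.08 and -0.23 on the CAS arrays, a difference of 0.24 (0.02 to 0.45, limma adjusted p = 0.257). The second Ccl6 probe set, 1420249_s_at, whose suffix marks that it can bind related transcripts, read 0.05 and -0.18 on the SPI arrays, against 0.11 and -0.05 on the CAS arrays. The probe sets of Ccl6 thus differ in sign, and neither passed. The second had a difference of -0.10 (-0.39 to 0.20), and the mean of both was 0.07.

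Ccl9 had probe sets at -0.03 (1417936_at) and 0.14 (1448898_at). On 1448898_at the SPI arrays read 0.04 and 0.12, against -0.04 and -0.07 on the CAS arrays, with no overlap between the diets, and the limma adjusted p was 0.417. On 1417936_at the values were 0.06 and -0.12 in SPI, against 0.02 and -0.02 in CAS. There the SPI arrays were the outermost. The mean of both probe sets was 0.05 (-0.11 to 0.21).

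Ccr2, the receptor of Ccl2, Ccl7 and Ccl12, was read by 4 probe sets, and none passed. Their differences were -0.03 (1421186_at), 0.09 (1421188_at), 0.16 (1460067_at) and 0.24 (1421187_at), with limma adjusted p between 0.387 and 0.912. On 1460067_at the arrays read 0.04 and 0.18 in SPI, against -0.04 and -0.06 in CAS. It was the only Ccr2 probe set on which the diets did not overlap. With 1 array left out 1421187_at lay between 0.05 and 0.44 and 1460067_at between 0.09 and 0.23. The mean of the 4 was 0.12 (-0.10 to 0.33).

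Ccr3, the receptor of Ccl11, read 0.13 and -0.24 on the SPI arrays, against -0.13 and 0.13 on the CAS arrays. The diets overlapped and the SPI arrays lay further apart than the CAS arrays. The difference was -0.06 (-0.46 to 0.35, limma adjusted p = 0.894). Its lowest array also lay under 4, as on 7 of the 14 probe sets. For the 12 probe sets that did not pass, all 95% intervals lay within a 2-fold difference either way, and 11 within a 1.5-fold difference, the exception being 1421187_at of Ccr2. These intervals limit the size of a difference and do not show that there was none. All 7 probe sets with their lowest array under 4 are among these 12. At so low a level the intervals bound the array signal, and may not bound the change in transcript. Centred on the hybridization controls, 4 of the small differences turned sign, those of Ccr3, 1420249_s_at of Ccl6, 1417936_at of Ccl9 and 1421186_at of Ccr2.

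Ccl2, Ccl7, Ccl11, Ccl12 and Ccl8 stand in this order on mouse chromosome 11, with no other protein-coding gene between them in the GRCm38.p6 annotation of RefSeq. Along this row the differences were 0.04, -0.36, -1.47, 0.07 and -1.22. Ccl12 thus lies between the members that fell, and its 95% interval (-0.32 to 0.47) does not overlap that of Ccl11 (-1.76 to -1.18) or Ccl8 (-1.54 to -0.90). The lowest array of Ccl12 lay under 4 on the log2 scale, while for Ccl11 and Ccl8 the bound was 8. At so low a level a fall of Ccl12 may not show. Ccl9 and Ccl6 form a pair elsewhere on chromosome 11, and Ccr3 and Ccr2 are neighbours on chromosome 9.

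**Figure D2:**
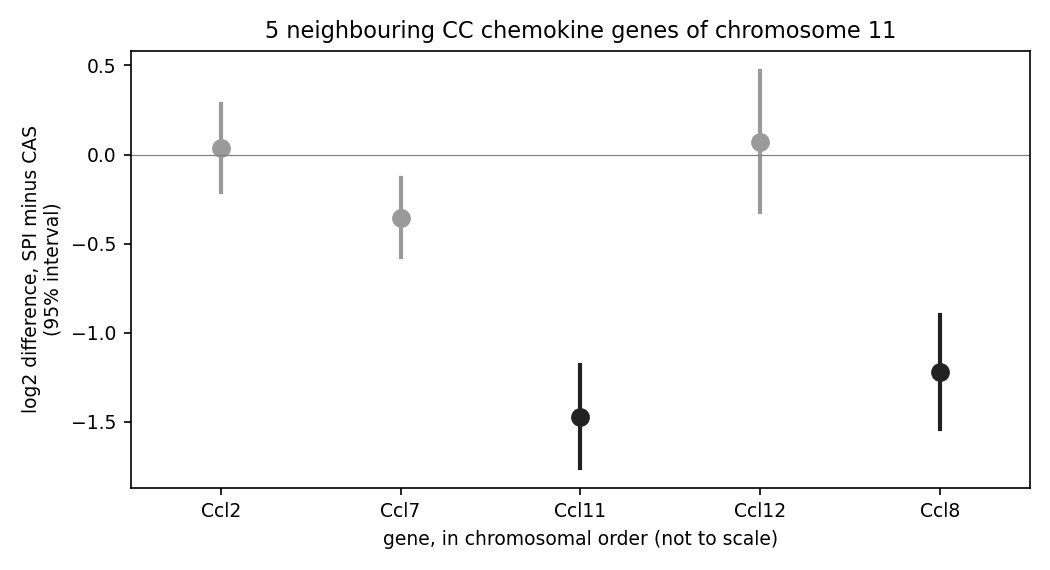
Log2 difference, SPI minus CAS (vertical axis, points), with 95% intervals (lines), for 5 neighbouring chemokine genes in their order on chromosome 11, with spacing not to scale. Black marks passed the test and grey marks did not. Ccl11 and Ccl8 lie at -1.47 and -1.22 on either side of Ccl12 at 0.07, whose lowest array lay under 4 on the log2 scale.

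The promoters of the neighbours Ccl8, which fell, and Ccl12, which did not pass, are shown because they contrast within this row. They are the 250 bases before the start site, from RefSeq on GRCm38.p6, plus strand, at chr11:82114935-82115184 for Ccl8 and chr11:82101595-82101844 for Ccl12. Capitals mark matches to the motifs searched.
Ccl8: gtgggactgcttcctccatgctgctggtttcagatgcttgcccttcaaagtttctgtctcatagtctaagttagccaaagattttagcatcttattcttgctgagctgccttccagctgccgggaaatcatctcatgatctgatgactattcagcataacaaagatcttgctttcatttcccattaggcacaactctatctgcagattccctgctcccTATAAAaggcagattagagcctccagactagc
Ccl12: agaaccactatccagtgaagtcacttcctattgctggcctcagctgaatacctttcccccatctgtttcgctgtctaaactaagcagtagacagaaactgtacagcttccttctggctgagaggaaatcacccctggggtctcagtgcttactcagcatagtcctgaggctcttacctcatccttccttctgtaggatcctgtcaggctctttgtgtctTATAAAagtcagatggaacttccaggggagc

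Promoters were found for 6 of the 9 genes, and none for Ccl2, Ccl7 or Ccl11, which were therefore not searched. Each promoter found was searched on both strands over 250 bases before and 50 after the start site. The TATA box was searched as TATAAA. The AP-1 site was searched as TGANTCA, and the STAT6 site as TTC and GAA with 4 bases between them. NF-kappaB was searched as GGG and CC with 5 bases between them, and the interferon-stimulated response element as GAAA repeated after 2 bases. Ccl8 and Ccl12 each held a TATA box, beginning at -32 and -31 from the start site, and no match to the other motifs. A TATA box match was present in 13.6% of all 32851 promoters of the table. Ccl9 and Ccr3 each held 1 match for NF-kappaB and 1 for AP-1. The NF-kappaB matches lie on the strand opposite to the gene and read GGGGCTTTCC and GGGAATTTCC there. These motifs matched in 50.8% and 7.81% of all promoters. Ccl9 also had 3 TATA box matches, a pair of them overlapping, while Ccl6 and Ccr2 had no match to any motif. The STAT6 site and the interferon element matched in none of the 6, and in 6.95% and 3.44% of all promoters. A match is a description of the sequence only.

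Among the other CC chemokines and their receptors, 2 ligands fell and 1 receptor rose. Of 11 other ligands measured by 14 probe sets, Ccl5 and Ccl3 fell and 9 had no probe set that passed. The median of their probe sets was 0.01, beside 0.02 over all probe sets. Ccl5, which draws T cells and monocytes, was at -1.37 (-1.63 to -1.11, limma adjusted p = 0.0123). Its arrays read -0.83 and -0.61 in SPI, against 0.68 and 0.61 in CAS.

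Ccl3, a macrophage inflammatory protein that binds Ccr1, read -0.45 and -0.31 on the SPI arrays, against 0.31 and 0.42 on the CAS arrays. The diets did not overlap, and the difference was -0.74 (-0.97 to -0.51, limma adjusted p = 0.0369). The related Ccl4 at -0.53 and the skin chemokine Ccl27a at 0.25 did not pass. Ccl24, another eotaxin, was at 0.03, and Ccl17 and Ccl22, which attract T cells through Ccr4, were at 0.13 and 0.06, and none of them passed.

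Of 12 other receptors read by 21 probe sets, Ackr4, a scavenging receptor that removes chemokines without signalling to attract cells, rose through 1 of its 3 probe sets. That probe set, 1426139_a_at, read 0.31 and 0.36 on the SPI arrays, against -0.31 and -0.34 on the CAS arrays. The difference was 0.66 (limma adjusted p = 0.0307), while the other Ackr4 probe sets at 0.30 and 0.08 and the mean of all 3 did not pass, nor did Ccr7 at -0.65 or Ackr1 at -0.45. Ccr8, the receptor of mouse Ccl8, was at 0.10, and Ccr1 at 0.30 and -0.02. The median over the 21 was 0.04.

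**Figure D3:**
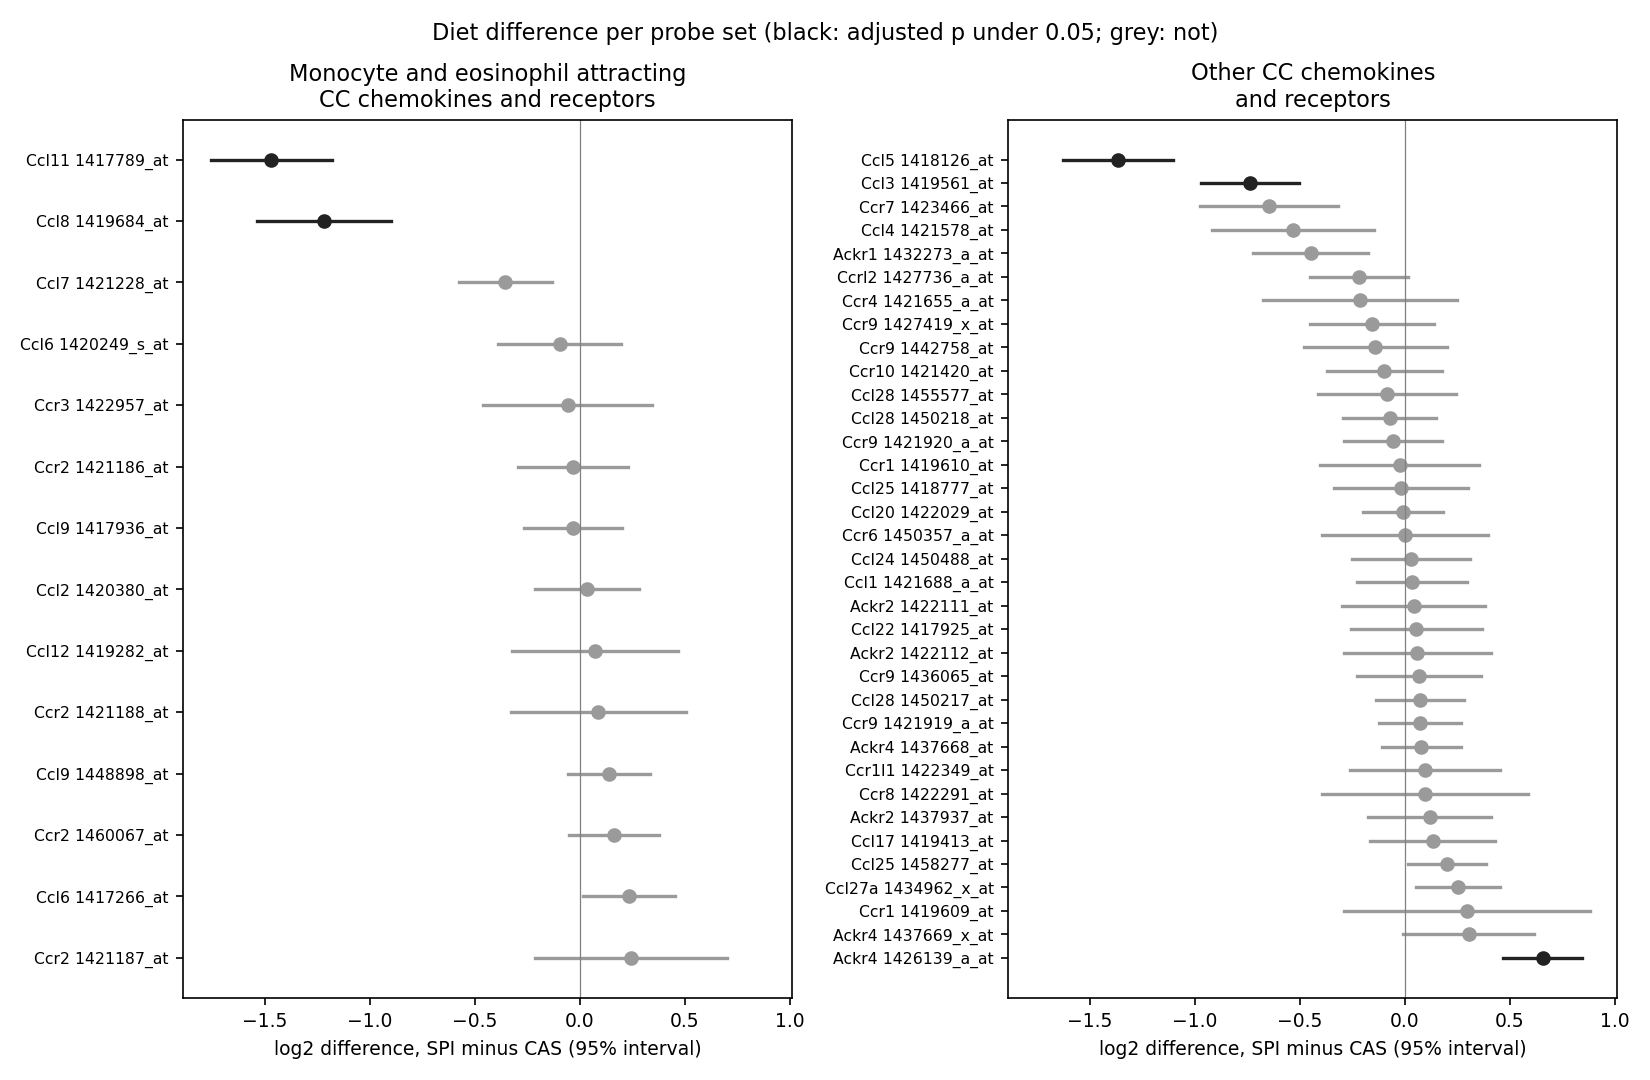
Log2 difference, SPI minus CAS (horizontal axis, points), with 95% intervals (lines), for the 14 member probe sets at the left and the 35 of other CC chemokines and receptors at the right. Black marks have an adjusted p under 0.05 and grey marks do not. Ccl11 and Ccl8 stand out at the left at -1.47 and -1.22, and Ccl5, Ccl3 and Ackr4 are the black marks at the right.

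Cytokines known to induce these chemokines were listed as well, together with receptors and transcription factors through which they act. Of 13 genes of this list read by 21 probe sets, Tnf and Il1r1 fell and 0 rose, with a median of -0.09. Tnf, a cytokine that induces Ccl2 and Ccl11 in many cells, was at -1.10 (-1.48 to -0.72, limma adjusted p = 0.0454). Il1r1, the receptor of interleukin 1, was at -1.03 on 1448950_at (limma adjusted p = 0.0168), and its second probe set at -0.13 did not pass.

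Il1a at -0.56 missed the threshold narrowly (limma adjusted p = 0.0504). Il13ra1, a chain of the interleukin 13 receptor, had 5 probe sets between -0.20 and -0.05, and none passed. The cytokines that induce Ccl11 in type 2 inflammation, Il4 and Il13, were at -0.09 and -0.06, with their lowest array under 4 on the log2 scale.

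By Euclidean distance over the 4 arrays, the annotated genes outside the members with values nearest to those of Ccl11 were Tmem87a (distance 0.0298), Runx3 (0.0788) and the neutrophil chemokine Cxcl5 (0.0889). Tmem87a read -0.71 and -0.67 in SPI, against 0.95 and 0.67 in CAS. Cxcl5 read -0.77 and -0.62 in SPI, against 0.88 and 0.62 in CAS.

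Markers of cell types that carry or make these chemokines were set beside the members. Of 19 monocyte and macrophage probe sets 0 passed in limma (8 at an unadjusted p under 0.05, beside 17.8% of all probe sets), with a median of 0.16. Both SPI arrays lay above both CAS arrays in 13 of them and below in 2, beside 27.9% and 20.5% of all probe sets. C1qc, a complement chain made by macrophages, was at 0.42 and Cd14 at -0.32. The mean of this list was 0.03 and 0.12 on the SPI arrays, and -0.15 and -0.05 on the CAS arrays.

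Of 7 eosinophil probe sets 0 passed in limma (3 at an unadjusted p under 0.05, beside 17.8% of all probe sets), with a median of 0.00. Their array means were -0.07 and -0.06 in SPI, and 0.04 and 0.14 in CAS. Among them Alox15, a lipoxygenase, was at -0.95 and Csf2rb at -0.65 and -0.10. The granule proteins Epx at 0.43 and Prg2 at 0.05 did not pass either. On 3 of the 7 probe sets, that of Prg2 among them, the lowest array lay under 4 on the log2 scale, where a change may not show. Of the 9 eosinophil genes listed 6 were measured. The general leukocyte, T and B cell markers also had 0 of 14 past the test in limma (2 at an unadjusted p under 0.05, beside the same 17.8%). Their median was 0.07, with Ms4a1 at -0.32 and -0.06 and Cd8a between -0.18 and 0.34. On 7 of these 14 the lowest array lay under 4 on the log2 scale.

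Markers of stromal cells were listed too. Of 27 fibroblast probe sets 18 fell and 0 rose, from 10 of 12 genes, with a median of -1.36, and the array means were -0.58 and -0.61 in SPI, and 0.54 and 0.62 in CAS. Lum was at -2.32, and the 6 probe sets of Fmod between -2.36 and -1.69. Of 15 endothelial and pericyte probe sets 8 fell, from 4 of 9 genes, with a median of -0.86 and array means of -0.29 and -0.39 in SPI, and 0.35 and 0.32 in CAS. Pdgfrb was at -1.46 and -0.81, and Cdh5 at -0.94 on a probe set that fell and 0.10 on one that did not pass.

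Mast cell markers also fell, in 5 of 13 probe sets, with a median of -0.78 and Cpa3 and Mcpt4 at -1.57 and -1.71. Their array means were -0.22 and -0.43 in SPI, and 0.35 and 0.25 in CAS. The other 8 did not pass, among them Tpsb2 at 0.17 and 0.09 and Ms4a2 at -0.05 and 0.02. The part of these cells in the falls of Ccl11 and Ccl8 was not tested.

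Markers of the labelled basal cells were set beside luminal ones, and the basal identity itself was not tested. Of 29 basal and myoepithelial probe sets 18 carried the digit step of a level between 8 and 16. So did 65 of 90 for ribosomal proteins, 2 of 44 for olfactory receptors and 11781 of all 45037 probe sets. Of the 29, 1 rose (Oxtr, at 0.68 on 1440888_at), while the second Oxtr probe set at 0.30 did not pass. The probe sets of Trp63, between 0.16 and 0.54, did not pass either. The median of the 29 was 0.13, in a range from -0.09 to 0.68. Luminal markers, at a median of -0.21, fell in 4 of 19 probe sets, Krt18 at -0.73 and Esr1 at -0.66 and -0.59 among them. A further Esr1 probe set at 0.07 did not pass, nor did those of Pgr, between 0.17 and 0.35. The same high step was on 12 of the 19, so it does not set basal cells apart from luminal ones.

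**Figure D4:**
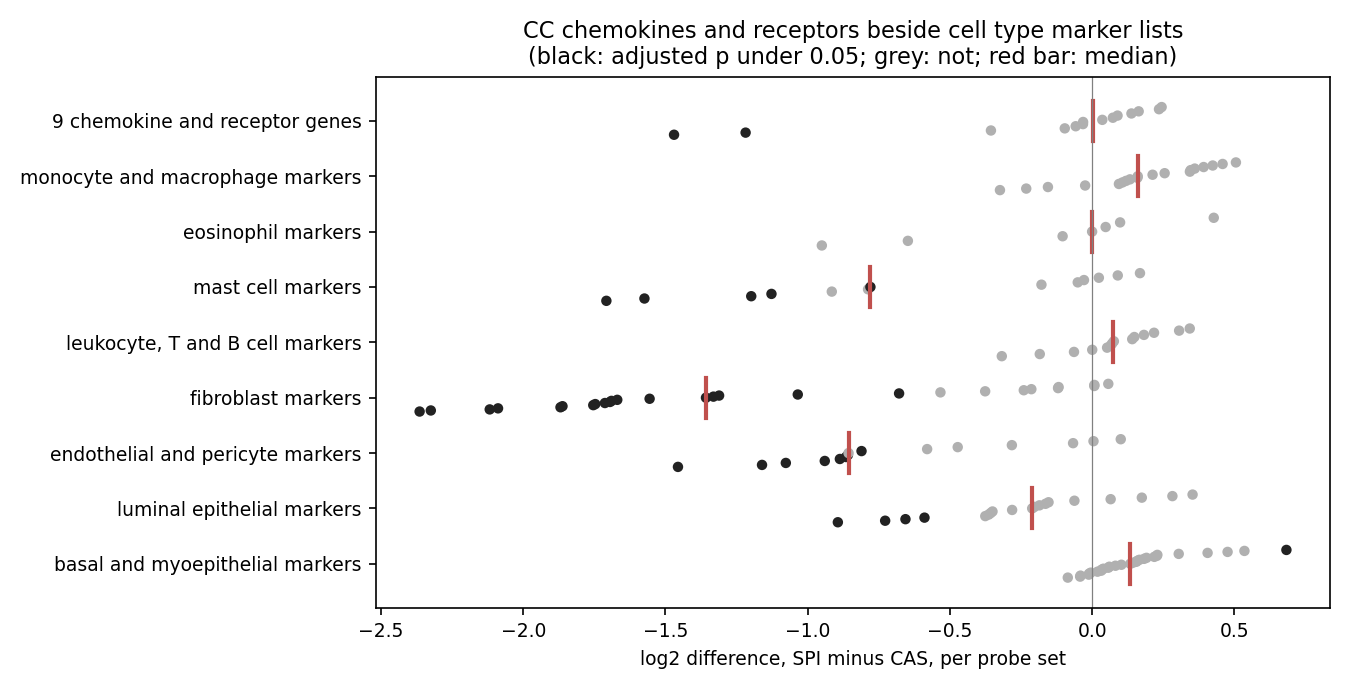
Log2 difference, SPI minus CAS (horizontal axis), for each probe set of the 9 chemokine and receptor genes (top) and of 8 marker lists. Black points have an adjusted p under 0.05, grey points do not, and red bars are medians. Macrophage markers have a median of 0.16 and fibroblast markers one of -1.36.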

How the data were processed

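The deposited values are log2 expression values of 4 Affymetrix arrays. The submitters' processing notes name GCOS and RMA, whose versions are not given in the sources used here. For the log2 values the base is taken from the RMA method, and the centring of each probe set on its median (within 5.0e-07 of 0 in all) is read from the values, with no label recording it. Scale and order of steps beyond this are unknown, and no genome build is named.

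Of 45101 probe sets 64 were controls. The other 45037 were tested one by one with limma 3.58.1 in R 4.3.3 (lmFit, eBayes without trend, two-sided, no block, 2 residual and 3.11 prior degrees of freedom). Of them 34945 had 1 annotated gene, 932 several and 9160 none listed, and 34741 of the 34945 matched a RefSeq gene table by gene ID. The number of arrays limits the precision. Steps of the deposited digits gave upper bounds of a probe set's lowest array (under 8, 4 or 2), and a step of 8 to 16 can also arise by chance at lower levels. The members, lists and motifs were chosen with earlier results of these data known. Named genes were all members, called genes and the 2 next by p of each pathway list, 2 per marker list and the 3 nearest to Ccl11. Others that are named (Ccl24, Ccl17, Ccl22, Ccr8, Ccr1, Il4, Il13, Epx, Prg2, Pgr, Tpsb2 and Ms4a2) were chosen after their values were seen. Simulated data were used to check the fit. Alternatives were a replicate block, each array left out, 2 recentrings, a filter on level 4, gene means, an ordinary t statistic and robust eBayes. Quantile normalization needs levels and was not used here, nor were protein sequences. A further promoter motif is not reported here.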

Additional observations from a re-analysis of the deposited data

How the results depend on the processing

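The falls of Ccl11 and Ccl8 kept their direction under every alternative run. The 2 calls among the 14 probe sets were also made with arrays centred on their median or on the hybridization controls. They were made as well with the filter on level 4, by gene means and with robust eBayes. They were lost with each array left out (0 calls among all probe sets, the members and the other CC chemokine probe sets in limma, with 4882 to 6513 of all probe sets and 2 to 4 of the members at an unadjusted p under 0.05; a lone array is then assumed to vary like the pair), with the replicate block and by the ordinary t statistic. The labels do not say that the replicate numbers pair the arrays, whose deviations from their diet means correlated at -0.099 between arrays of the same number. With the replicate block 79 of all probe sets, 0 members and 0 of the other CC probe sets passed in limma (6300, 3 and 7 at an unadjusted p under 0.05), with an adjusted p of 0.0665 for Ccl11 and 0.111 for Ccl8. By the ordinary t statistic 1, 0 and 0 passed (6084, 3 and 5 unadjusted), with adjusted p of 0.269 and 0.3. Over all probe sets 2261 passed with arrays centred on the hybridization controls, 704 lower and 1557 higher, which moved the median difference to 0.18. The filter on level 4 kept the 30230 probe sets whose digit step was not that of a lowest array under 4. Of these 1080 passed, 779 lower and 301 higher. The filter rests on the digit steps alone, so it does not ensure a level of 4. It also left out the 469 probe sets with no step.

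Small differences turned sign. On the hybridization controls 1420249_s_at of Ccl6 became 0.059, Ccr3 0.10, 1421186_at of Ccr2 0.12 and 1417936_at of Ccl9 0.12. With 1 array left out the ranges were -0.21 to 0.020 for 1420249_s_at of Ccl6, -0.24 to 0.13 for Ccr3, -0.14 to 0.075 for 1421186_at and -0.078 to 0.26 for 1421188_at of Ccr2, -0.12 to 0.056 for 1417936_at of Ccl9, -0.064 to 0.14 for Ccl2 and -0.14 to 0.28 for Ccl12. The cause was not tested.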
